A study of Homo sapiens with 32 samples.

Results

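TBPL1 and SLC2A12 lie tail to tail on the long arm of chromosome 6, with the last exons of both genes covering the same stretch on opposite strands. They are 2 of the 57773 genes in the table, chosen by name because their values were lower under tamoxifen in the repressive and neutral lines. Those values are therefore given below as a description, with no test, and tests are given only for the parental and activating lines. Both genes passed the expression filter and are among the 3985 genes tested.

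The 32 RNA-seq libraries came from LNCaP, an androgen-dependent prostate cancer line grown from a lymph node metastasis, in 8 groups of 4 replicates that the labels call biological. The parental line carried no construct, and 3 further lines each carried a MACC, a fusion of a DNA binding domain with ERT2, a mutant estrogen receptor domain that moves to the nucleus when tamoxifen binds. The neutral MACC carried a 3X FLAG tag only, the repressive MACC added KRAB, which recruits silencing factors, and the activating MACC added VP64, a viral activation domain. Every line received either 2.5 µM tamoxifen or the ethanol vehicle for 48 h, in RPMI-1640 medium with 10% fetal bovine serum. Each construct was delivered by lentivirus into 1 stable line selected with blasticidin. An effect of the construct and a property of that line therefore cannot be told apart when lines are compared. This holds under vehicle, under tamoxifen and for a difference in response.

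Depth ran from 454982 to 1164808 counts per library (median 669922). The luminal prostate markers read here had counts in every library, among them KLK3 with 3 to 59 and HOXB13 with 14 to 72. The counts of KLK3 and HOXB13 were few beside the library totals, so they show presence and not abundance. PTPRC, CD3E, CD14, COL1A2 and DCN were at 0 in all 32, while VWF and COL1A1 reached at most 2 counts and KRT14 at most 3. KRT5, a basal keratin, had 38 to 54 counts in the 4 activating tamoxifen libraries and 0 in the other 28, and its part in the results for that group was not tested. ESR1, the source of ERT2, had 66 to 159 counts in the construct lines and at most 2 in the parental line, and ZNF10, whose KRAB domain is widely used, had 11 to 20 in the repressive line and at most 1 elsewhere.

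SLC2A12 encodes GLUT12, a member of the facilitative glucose transporter family, which carries glucose across the plasma membrane down its gradient. TBPL1 encodes a relative of the TATA-binding protein that binds TFIIA but does not recognise the TATA box, and it is best known for its role in the formation of sperm. Androgen response elements (AREs) are pairs of inverted 6-base cores held 3 bases apart, and the MACCs were built to reach such elements through their DNA binding domain.

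TBPL1 (ENSG00000028839) runs on the plus strand of GRCh37 from 134273308 to 134311570 on chromosome 6, with 8 annotated transcripts and 5039 bases of exonic sequence. SLC2A12 (ENSG00000146411) runs on the minus strand from 134308719 to 134373762, with 1 transcript and 5572 bases of exonic sequence. Their exons share the 2852 bases from 134308719 to 134311570, which is 56.6% of the exonic length of TBPL1 and 51.2% of that of SLC2A12. The shared stretch lies in the 3′ untranslated region of both, and 1 of the 8 TBPL1 transcripts reaches it. A read from this stretch belongs to 1 gene or the other only by its strand, and the strand setting of the counting was not given in the sources used here, so the 2 values are uncertain as separate levels.

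**Figure D1:**
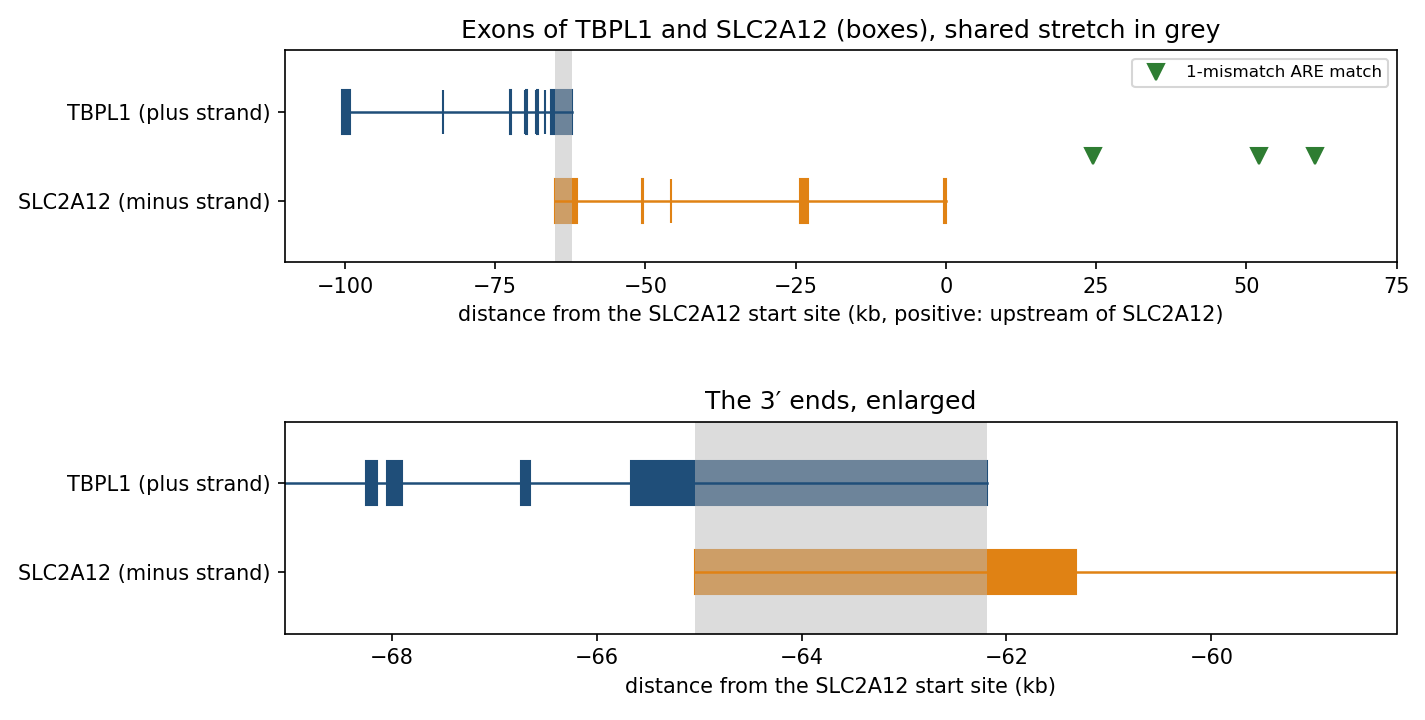
Exons (boxes) of TBPL1 and SLC2A12 by strand, against the distance in kb from the SLC2A12 start site, with an enlargement of the 3′ ends. The grey band is the 2852-base stretch that exons of both genes cover, and the triangles are the 3 sequences that differ by 1 base from the ARE consensus, all upstream of SLC2A12.

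The starts of the genes point away from each other, about 100 kb apart in a span of 100455 bases, and the bases before each start are shown because both members were lower under tamoxifen in the neutral and repressive lines. These are the 250 bases before the RefSeq start of each gene on GRCh38.p14, in the direction of transcription, at chr6:133952974-133953223 on the plus strand for TBPL1 and chr6:134052625-134052874 on the minus strand for SLC2A12. Capitals mark CpG dinucleotides, the pairs that cluster in CpG island promoters.
TBPL1: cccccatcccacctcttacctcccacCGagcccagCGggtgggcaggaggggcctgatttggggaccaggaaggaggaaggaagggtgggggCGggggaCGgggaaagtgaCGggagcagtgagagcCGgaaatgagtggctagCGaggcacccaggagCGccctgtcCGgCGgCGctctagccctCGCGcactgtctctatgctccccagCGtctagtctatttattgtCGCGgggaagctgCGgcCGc
SLC2A12: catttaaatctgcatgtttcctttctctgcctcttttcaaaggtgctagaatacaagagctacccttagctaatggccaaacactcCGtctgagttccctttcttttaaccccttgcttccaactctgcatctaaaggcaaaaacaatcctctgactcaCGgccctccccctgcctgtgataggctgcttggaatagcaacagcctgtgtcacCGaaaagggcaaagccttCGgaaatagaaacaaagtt

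The TBPL1 sequence held 18 CpGs and 66.8% G or C, and the SLC2A12 sequence 4 CpGs and 46%. Across 35116 RefSeq promoters cut in the same way the median was 11 CpGs and 58% G or C, and 36.8% held at least 18. Searched on both strands over the RefSeq window of 300 bases, which adds the first 50 transcribed bases, neither promoter held the ARE consensus (AGAACA, any 3 bases, TGTTCT), its core AGAACA or the TATA-box letters TATAAA. These were found in 0.0028%, 14.8% and 11.5% of all such promoters, and the core is part of the consensus. Their absence from these windows says nothing of binding elsewhere.

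No match to the ARE consensus was found on either strand within the span of both genes on GRCh37, with or without 1 mismatch in the 12 fixed positions. A match with 1 mismatch was found in 39.8% of 28265 genomic windows of the same length. With 100 kb added on each side, 3 sequences with 1 mismatch were found and none without. All 3 lie upstream of SLC2A12, in an intron of ENSG00000287413, an RNA gene on the plus strand that was not analysed here. They are the only sequences within 100 kb of the span that match with at most 1 mismatch. Single cores and looser matches were not searched for in this stretch. The 3 are printed on the plus strand with 30 bases on each side, the 12 fixed positions of the consensus in capitals.
chr6:134398222-134398236: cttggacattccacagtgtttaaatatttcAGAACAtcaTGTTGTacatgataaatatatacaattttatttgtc
chr6:134425818-134425832: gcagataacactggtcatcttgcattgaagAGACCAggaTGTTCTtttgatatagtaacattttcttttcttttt
chr6:134435113-134435127: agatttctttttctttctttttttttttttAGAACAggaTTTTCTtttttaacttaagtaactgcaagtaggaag

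Counted from 1 at the 5′ end of the consensus, the first carries C14G, the second A4C and the third G11T, where the letter of the consensus comes first. They lie 24467, 52063 and 61358 bases upstream of the SLC2A12 start. Of 9339 genomic windows of the same length, 300455 bases, 77.4% held at least 1 such sequence and 20.5% held 3 or more, so 3 is not unusual for a stretch of this size. Binding was not measured in these libraries.

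The values assigned to the members were far apart. On average a library held 324 counts of TBPL1 and 21.0 of SLC2A12, or 64.3 and 3.77 counts per kb of exonic sequence. If the 2 rows were exchanged, the values would be 4.17 for TBPL1 and 58.2 for SLC2A12 per kb, and whether reads were assigned to the correct strand was not tested. In the table as a whole, genes with an exon overlap on the opposite strand are 23.0% of those annotated and carry 80.9% of the counts. Median counts per library were 65.5 for GAPDH and 17030 for RP5-940J5.9 opposite to it. They were 927.5 for TAF10 and 46.5 for ILK opposite to it. Either gene of that last pair may be the source of its reads, so it does not show which strand was counted. Levels below are those of each row as it is named, whichever gene its reads came from. The share of the pair's counts on TBPL1 was 93.9% over all libraries (95% Wilson interval 93.5 to 94.3, counting error only), and between 87.0% and 97.3% in single libraries. By group it ran from 90.6% in repressive tamoxifen libraries, where 46 of 490 counts fell on SLC2A12, to 95.8% in activating tamoxifen libraries, where 54 of 1288 did.

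In the neutral line, where the construct carries no effector domain, TBPL1 had normalized counts (CPM, scaled by TMM over all libraries) of 497, 609.9, 684 and 592 under vehicle and 216, 220.0, 216 and 253 under tamoxifen. Every tamoxifen library lay below every vehicle library by a wide margin. The log2 fold change in edgeR's fit was -1.41 (standard error, SE, 0.0938), a level 2.66-fold lower, without a test since this contrast chose the gene. SLC2A12 had 34.6, 46.8, 36.2 and 38.8 under vehicle and 18.1, 15.4, 16.5 and 15.7 under tamoxifen, which rests on 124 and 47 raw counts in all. Its groups did not overlap either, and its fold change was -1.24 (SE 0.232). In this line 5.42% of tested genes were lower under tamoxifen with no overlap, and 2.11% were lower with an adjusted p under 0.05 in edgeR, a count of 84 genes that ranged from 39 without the fourth vehicle replicate to 172 without the fourth tamoxifen replicate.

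In the repressive line TBPL1 had normalized counts of 508, 477, 509 and 470.0 under vehicle, a narrow range, and 163, 148, 179 and 173 under tamoxifen. The log2 fold change was -1.61 (SE 0.0907), 3.05-fold lower, and again no tamoxifen library reached a vehicle library. SLC2A12 had 33.4, 24.1, 24.9 and 30.6 under vehicle and 24.5, 13.9, 15.3 and 13.6 under tamoxifen. Here the groups overlapped, because the first tamoxifen replicate (24.5) lay above the lowest vehicle library (24.1). Its fold change was -0.77 (SE 0.283), and -1.02 without that replicate. Tested genes lower under tamoxifen with no overlap made up 9.71% in this line, and those lower with an adjusted p under 0.05 made up 9.99%.

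**Figure D2:**
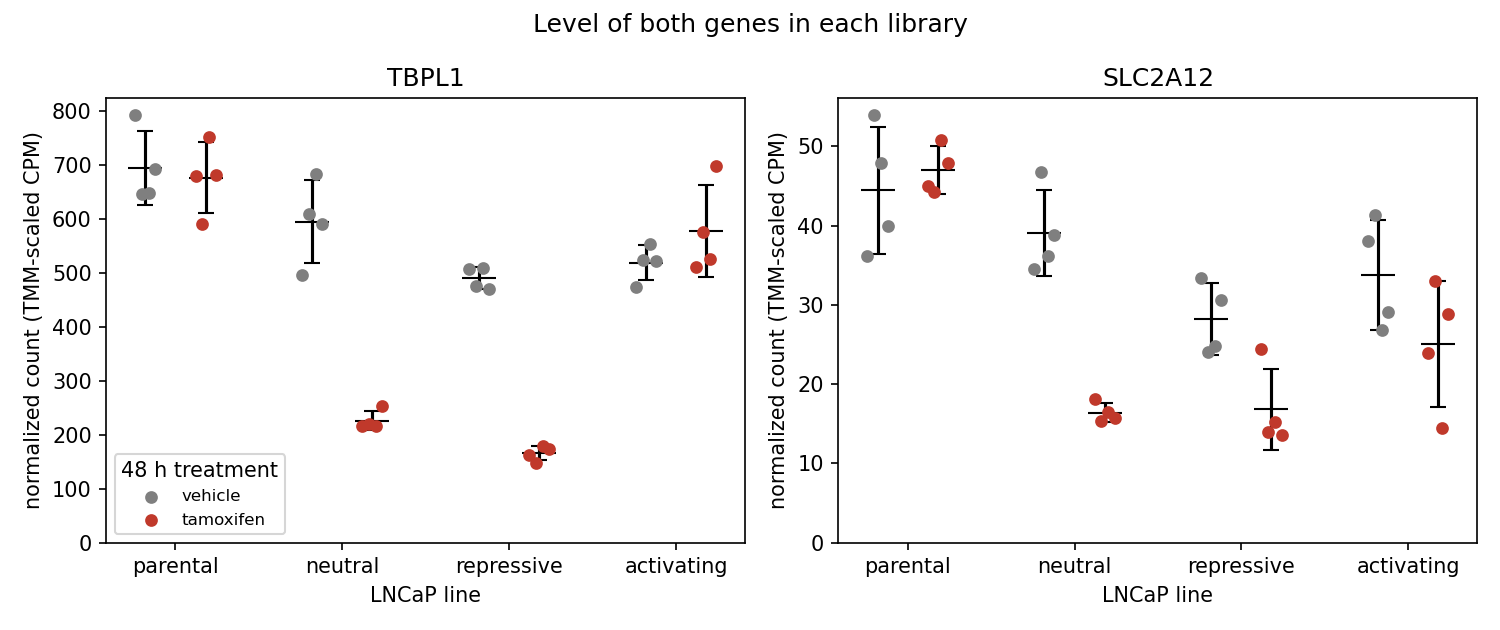
Normalized counts of TBPL1 and SLC2A12 in each of the 32 libraries, by line and treatment, with the mean and standard deviation of 4 libraries as bars. TBPL1 under tamoxifen lies between 148 and 253 in the neutral and repressive lines and between 511 and 753 in the activating and parental lines.

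The parental line carries no ERT2 domain and gives the background of tamoxifen itself. TBPL1 had normalized counts of 793, 646, 648 and 693 under vehicle and 681, 592, 753 and 683 under tamoxifen, and the groups overlapped almost wholly. Its log2 fold change was -0.082 (SE 0.0937, edgeR adjusted p = 0.855). SLC2A12 had 36.1, 54.0, 47.9 and 39.9 under vehicle and 45.0, 44.2, 50.9 and 47.9 under tamoxifen, with a fold change of 0.039 (SE 0.212, edgeR adjusted p = 0.986). Neither gene differed beyond the spread of the replicates. In the parental line edgeR and DESeq2 each called 0 of the tested genes (0%), while 306 had an unadjusted p under 0.05 in edgeR.

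In the activating line, whose construct recruits activators, no tamoxifen library came down to the TBPL1 levels seen with the neutral and repressive constructs. TBPL1 had normalized counts of 475, 525, 554 and 522 under vehicle and 511, 577, 525 and 699 under tamoxifen. The groups overlapped, with the fourth tamoxifen replicate above the rest. edgeR gave a log2 fold change of 0.28 (SE 0.0906, adjusted p = 0.0144), in a line where 22% of tested genes were called higher and 22.8% lower. This call rests on the scaling: on the normalized counts the difference was 0.15 (exact permutation p = 0.229), on CPM by column total it was -0.16 (exact permutation p = 0.143), and with TMM factors from genes without opposite-strand overlap it was 0.46. The median tested gene moved with these scalings, from -0.092 in edgeR's fit to -0.20, -0.48 and 0.084, and relative to it TBPL1 stood at 0.37 in edgeR's fit, 0.32 by column total and 0.37 with the restricted TMM factors. The TMM factors were 0.795 to 0.900 in these tamoxifen libraries and 0.934 to 1.13 in the vehicle libraries. Without the fourth tamoxifen replicate the value was 0.20 and the call was lost (edgeR adjusted p = 0.0805).

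SLC2A12 in the activating line had normalized counts of 38.0, 41.3, 26.8 and 29.1 under vehicle and 23.9, 33.1, 14.5 and 28.8 under tamoxifen. The groups overlapped, and the third tamoxifen replicate was the lowest of the 8. The log2 fold change was -0.32 (SE 0.268, edgeR adjusted p = 0.359), and the value ranged from -0.47 to -0.15 with 1 library left out. On the normalized counts it was -0.42 (exact permutation p = 0.171), by column total -0.70 (exact permutation p = 0.0571) and with the restricted TMM factors -0.14. Its difference from the value in the repressive line was not tested. The raw counts behind it were 102 under vehicle and 54 under tamoxifen, over 4 libraries each, so a difference of this size was not detectable at this depth.

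The response of TBPL1 was then compared between the activating and parental lines as an interaction over 16 libraries. Its log2 size was 0.37 (SE 0.132, edgeR adjusted p = 0.0301), beside 32.2% of tested genes called. It did not hold under every scaling, with 0.18 on the normalized counts (exact permutation p = 0.238) and -0.093 by column total (exact permutation p = 0.465), where the median tested gene stood at -0.52 and TBPL1 relative to it at 0.42. For SLC2A12 the same comparison gave -0.34 (SE 0.329, edgeR adjusted p = 0.471).

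**Figure D3:**
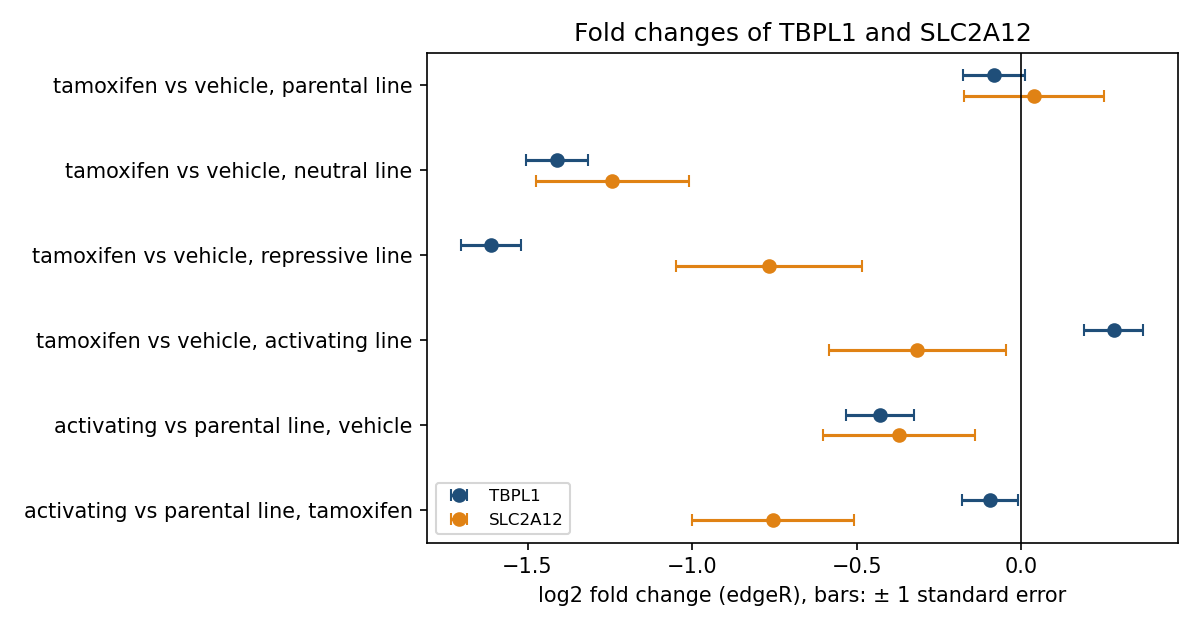
Log2 fold changes of TBPL1 and SLC2A12 from edgeR in 6 comparisons, with bars of 1 standard error. Under tamoxifen in the neutral and repressive lines TBPL1 sits at -1.41 and -1.61, while its value of 0.28 in the activating line was -0.16 by column total, where the median tested gene was at -0.48 and TBPL1 relative to it at 0.32.

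Comparing the activating with the parental line before induction asks how the lines differ without tamoxifen, through the construct or through the line itself. Every activating vehicle library had less TBPL1 (475 to 554) than every parental vehicle library (646 to 793). The log2 fold change was -0.43 (SE 0.104, edgeR adjusted p = 0.0169), in a comparison where 3.84% of tested genes were called lower and 7.8% were lower with no overlap. The 153 genes called lower became 51 to 186 with 1 library left out, the fewest without the third parental vehicle replicate. The direction held with every scaling tried, and the call was lost without the third parental vehicle replicate (-0.45, edgeR adjusted p = 0.0523). SLC2A12 ranged from 26.8 to 41.3 in the activating line and from 36.1 to 54.0 in the parental line, with a fold change of -0.37 (SE 0.230, edgeR adjusted p = 0.373). The neutral and repressive lines share these parental libraries and are described only: TBPL1 was at -0.26 and -0.50 against the parental line under vehicle, and SLC2A12 at -0.22 and -0.65.

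Of the members, edgeR called only SLC2A12 between the activating and parental lines under tamoxifen, and the difference between the members is tested below by their ratio. TBPL1 in the activating line (511 to 699) overlapped the parental line (592 to 753), with a log2 fold change of -0.095 (SE 0.0861, edgeR adjusted p = 0.393). By column total its difference was -0.53, where the median tested gene was at -0.44 and TBPL1 relative to it at -0.091. SLC2A12 in the activating line (14.5 to 33.1) lay below the parental line (44.2 to 50.9) in all 4 libraries. Its fold change was -0.75 (SE 0.247, edgeR adjusted p = 0.0119), beside 21.5% of tested genes called lower and 23.2% lower with no overlap. Under vehicle the same lines stood at -0.37 for SLC2A12, and the difference in response was -0.34, neither of them called. DESeq2 gave -0.77 with an adjusted p of 0.0564, and edgeR without the third activating tamoxifen replicate gave -0.59 with an adjusted p of 0.0579, so the call rests on that library and on the test.

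The ratio of TBPL1 to SLC2A12 within a library needs no scaling. On the log2 scale it was 3.76 ± 0.0798 in parental tamoxifen libraries and 4.41 ± 0.386 in activating tamoxifen libraries (SD, n = 4 each). The difference of 0.65 had an exact permutation p of 0.0286 and an adjusted p of 0.114 over the 4 comparisons of this ratio. With a prior count of 0.5 the difference was 0.71. The ratio was higher in the activating line in all 4 libraries, and 0.0286 is the smallest p that 4 against 4 libraries can give. As the only comparison of the 4 at that floor it could not pass the correction, so its failure says nothing against a difference. Within the activating line tamoxifen and vehicle differed by 0.57 (exact permutation p = 0.0857, adjusted p = 0.171), and within the parental line by -0.13 (exact permutation p = 0.600, adjusted p = 0.800).

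Ranked by their mean normalized count, the 8 groups for TBPL1 ran from repressive tamoxifen (166 ± 13.5) and neutral tamoxifen (226 ± 18.2) to repressive vehicle (491 ± 20.4), activating vehicle (519 ± 32.7), activating tamoxifen (578 ± 85.3), neutral vehicle (596 ± 76.6), parental tamoxifen (677 ± 66.1) and parental vehicle (695 ± 68.6), as SD with n = 4 each. The 3 lowest groups did not overlap with each other, and from the third upward every neighbour overlapped the next. For SLC2A12 the order was neutral tamoxifen, repressive tamoxifen, activating tamoxifen, repressive vehicle, activating vehicle, neutral vehicle, parental vehicle and parental tamoxifen, and every neighbour overlapped the next. Across the 32 libraries the log2 levels of the members had a Pearson correlation of 0.81, which was 0.076 once group means were taken out. The libraries share their groups and scaling, and reads of the shared stretch may count toward either gene, so this is a description.

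The genes whose log2 levels were most like those of TBPL1 over the 32 libraries, among 1255 with a mean of at least 50 counts, were DDTL (r = 0.90), SKIV2L2 (r = 0.88), AC097467.2 (r = 0.84), RP11-443A13.5 (r = 0.83) and LIMD1-AS1 (r = 0.82). DDTL is a near copy of the tautomerase gene DDT and its counts may be split with it, and SKIV2L2, now MTREX, encodes an RNA helicase that works with the nuclear exosome. Exons of each overlap those of a gene on the opposite strand, namely DDT, PLPP1, MAP9, KCNMA1 and LIMD1. Such overlap was found for 91.4% of the candidates in the annotation, so it does not set these genes apart. Each of these rows had a higher mean count per library than the gene opposite to it. The means were 418 for DDTL and 9.72 for DDT, and 1909 for SKIV2L2 and 40.75 for PLPP1. They were 52.1 for RP11-443A13.5 and 4.81 for KCNMA1. Which gene of each pair was the source of the reads was not tested, so these rows carry the same uncertainty of strand. Like TBPL1, SKIV2L2 and RP11-443A13.5 had large differences in the repressive line, at -1.35 and -2.10 on the log2 scale, and in the neutral line, at -0.83 and -1.08. The genes were chosen by likeness to TBPL1 over these same libraries, so this is a description.

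In the activating line the changes of these genes and of TBPL1 differed in size. The libraries of this line also served to choose the genes, so their p-values are not independent of that choice. SKIV2L2 rose from a normalized count of 2698 ± 199 to 5828 ± 566 (log2 fold change 1.24, edgeR adjusted p = 9.75e-13) and RP11-443A13.5 from 70.1 ± 10.8 to 214 ± 9.36 (1.73, edgeR adjusted p = 3.35e-10; SD, n = 4 each), both higher under every scaling tried. DDTL had a log2 fold change of 0.26 (edgeR adjusted p = 0.0143) that was -0.18 by column total, and 0.30 relative to the median tested gene there. AC097467.2 and LIMD1-AS1 had values of 0.33 and 0.18, for which edgeR's adjusted p-values were 0.0818 and 0.0825.

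**Figure D4:**
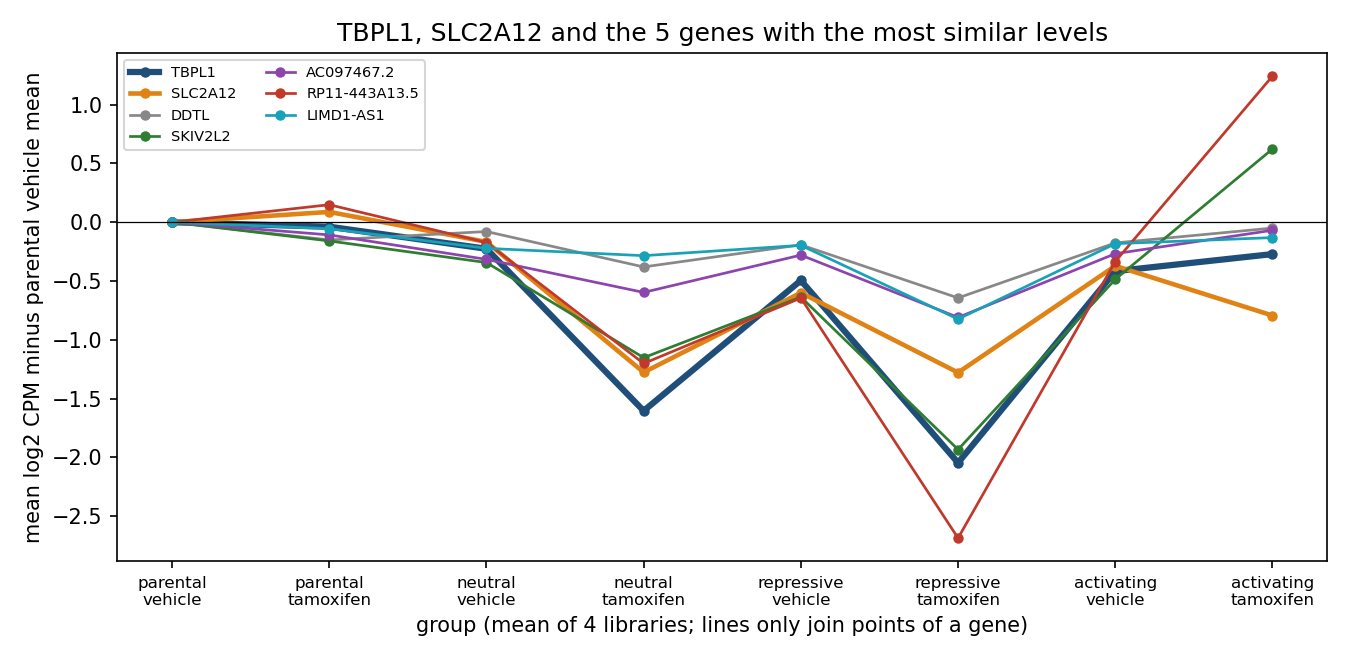
Mean log2 level of TBPL1, SLC2A12 and the 5 genes most like TBPL1 in each group of 4 libraries, minus the parental vehicle mean. All 7 are lowest, or in the case of SLC2A12 about as low as in neutral tamoxifen, under repressive tamoxifen, and SKIV2L2 and RP11-443A13.5 alone stand well above the parental level under activating tamoxifen.

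The other genes of each pathway were read from lists. Of 13 further glucose transporter genes 9 had a count and 2 passed the filter. SLC2A1, the basal transporter GLUT1, had 1 to 20 counts per library and SLC2A11 had 9 to 32, and neither was called in any line, where called genes made up 0%, 4.72%, 17.8% and 44.8% of those tested for parental, neutral, repressive and activating cells.

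Of 17 glycolysis genes all had counts and 11 were tested. None was called in the parental or neutral line. In the repressive line GAPDH, which oxidises glyceraldehyde 3-phosphate, rose by a log2 fold change of 0.60 (edgeR adjusted p = 0.00865), and no other was called. In the activating line 4 fell and 1 rose, a share of called genes near the 44.8% of all tested genes, with a median of -0.73 over the 11, also with GPI at its bound, beside -0.092 over all tested genes. HK2, the hexokinase that traps glucose in the cell, fell from a normalized count of 45.3 ± 11.1 to 16.9 ± 5.60 (-1.31, edgeR adjusted p = 0.000595). PFKM, a phosphofructokinase, fell by 0.92 (edgeR adjusted p = 0.0200) and GAPDH by 0.76 (edgeR adjusted p = 0.000776) on the log2 scale. GPI, the glucose phosphate isomerase, went from 7 to 10 counts per library to 0 to 2 and was called lower (edgeR adjusted p = 0.00209), at least 2.13-fold if the tamoxifen libraries are put at 3 counts each. ALDOA, the aldolase, rose by 0.71 (edgeR adjusted p = 0.00506). These 5 directions held under every scaling tried. PFKM shares exonic sequence with SENP1 and ALDOA with ENSG00000274904 on the opposite strand, and HK2 and GPI had no such overlap in the annotation. GAPDH had a mean normalized count of 94.1 in activating vehicle libraries while RP5-940J5.9, which lies opposite to it, had 23794. The reads of GAPDH are thus open to the same uncertainty of strand. RP5-940J5.9 rose in the repressive line as well (0.37, edgeR adjusted p = 0.000432). In the activating line, where GAPDH fell, RP5-940J5.9 was not called (-0.16, edgeR adjusted p = 0.0516) and stood at 0.015 with the restricted TMM factors.

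Of 22 TBP relatives and partners, the subunits of TFIID and of other complexes that hold TBP, 21 had counts and 5 were tested. Their median was 0.34 in the repressive line and 0.32 in the activating line, beside 0.0048 and -0.092 over all tested genes. It was 0.21 in the parental line, which has no construct, and 0.073 in the neutral line. In the repressive and in the activating line 2 of the 5 were called, where 17.8% and 44.8% of all tested genes were. TBP itself had 0 to 4 counts and was not tested. TAF10, a TFIID subunit, was at 0.23 on the log2 scale with the repressive construct (edgeR adjusted p = 0.0130) and at 1.04 with the activating construct (edgeR adjusted p = 7.67e-11), where its normalized count went from 1280.3 ± 80.6 to 2414 ± 311 (SD, n = 4 each). DRAP1, a subunit of the repressor NC2, had 0.82 (edgeR adjusted p = 0.0201) and 0.61 (edgeR adjusted p = 0.0370), and values of 0.62 in the parental line (edgeR adjusted p = 0.641) and 0.55 in the neutral line (edgeR adjusted p = 0.194) that were as large as the last and not called. Both rose in both lines under every scaling tried, and no listed gene was called in the parental or neutral line. TAF10 shares exonic sequence with ILK on the opposite strand, whose normalized count in the activating line was 73.6 with vehicle and 85.1 with tamoxifen. ILK was called lower in the neutral line (-0.60, edgeR adjusted p = 0.0389), as was CNPY4, which lies opposite TAF6 (-1.15, edgeR adjusted p = 0.0494), and CNPY4 was also called lower in the activating line (-2.01, edgeR adjusted p = 0.00372).

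Around the locus there was little else to read. Of 39 annotated genes within 1 Mb, 31 were matched in the table and 4 had any count, namely RPL23AP46, SGK1, KRT8P42 and HBS1L, with at most 3 in a library. None passed the filter, so whether neighbours moved with TBPL1 and SLC2A12 was not detectable at this depth.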

How the data were processed

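The authors prepared libraries with the Illumina Stranded mRNA Prep kit, sequenced them on a NovaSeq, ran an nf-core workflow against GRCh37 and deposited salmon (version 1.9.0) estimated counts per gene, without normalization. The submitters' notes also name DESeq2 1.28.0. The annotation release and strand setting were not given in the sources used here. Of the deposited estimated counts 1.065% were not whole, and they were rounded here. The members and lists were chosen with earlier results of these data known.

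Genes passing filterByExpr over the 8 groups were tested with edgeR 4.0.16 in R 4.3.3 (TMM, robust estimateDisp and glmQLFit, glmQLFTest), over the libraries of each comparison, with Benjamini-Hochberg adjustment over all 3985 genes and a threshold of 0.05. A standard error is the log2 fold change over the root of its F statistic. Normalized counts use TMM factors over all 32 libraries and the 23861 genes with at least 1 count, and log2 levels a prior count of 2. Permutation tests are exact and two-sided. DESeq2 1.42.0, other scalings, no filter, a joint fit, a replicate block, summed members and each library left out were alternatives. Scripts were tested on simulated data.

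Samples were grouped by their labels, and p-values measure the spread between these replicates. The 48 pairs of replicates had a chi-square per gene of 1.48 to 32.9, so none differed by less than the sampling noise. Gene models came from GENCODE lifted to GRCh37, which held 96.1% of the table's genes. Named genes are the members, the 5 genes most correlated with TBPL1, up to 4 called genes of each list by size of change in the parental or activating line, SLC2A1, TBP and opposite features; other names, such as ALDOA, were chosen after their values were seen. The strand of reads was not tested, and no protein sequence was used here. Some marker genes are not reported here.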

Additional observations from a re-analysis of the deposited data

Results flagged for a closer look

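In neutral tamoxifen libraries TBPL1 had a normalized count of 253 in the fourth replicate against 216 to 220.0 in the other 3, a gap large for the range of the group. In repressive tamoxifen libraries SLC2A12 had 24.5 in the first replicate against 13.6 to 15.3 in the others, from 19 counts against 8 to 10. Of 24 groups examined for an outlying library these 2 were found, where chance gives about 1 in 20.

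The response of TBPL1 to tamoxifen differed between the activating and parental lines by 0.37 on the log2 scale in edgeR's interaction test (adjusted p = 0.0301), and it was -0.093 by column total, where the median tested gene was at -0.52 and TBPL1 relative to it at 0.42.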

How the results depend on the processing

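Of 202 alternative values with a test, 180 stayed on their side of the threshold, and another 86 values had no test. Throughout this section exact permutation p-values, also those of the ratio, were set against 0.05 without adjustment. Those of edgeR and DESeq2 were adjusted. Without 1 library, uncalled values near 0 changed sign for SLC2A12 in the parental line (to -0.049) and for the log2 ratio in the parental line (to 0.027) and between lines under vehicle (to 0.11). Chosen after seeing the data were summed members, TMM factors from genes without opposite-strand overlap, the ratio, exact permutation for TBPL1 and, for SLC2A12, DESeq2, its size factors, the joint fit, the block and a prior count of 2. Exact permutation with a prior count of 2 or 0.5 gave 0.15 for TBPL1 in the activating line and 0.18 for its response against the parental line, neither past the threshold, and CPM by column total turned these to -0.16 and -0.093 and gave -0.53 for the activating against the parental line under tamoxifen, past it, while the median tested gene stood at -0.48, -0.52 and -0.44 in these comparisons and TBPL1 relative to it at 0.32, 0.42 and -0.091. Without the low count filter the response was 0.33 (edgeR adjusted p = 0.186). DESeq2 gave -0.77 for SLC2A12 in the activating against the parental line under tamoxifen.

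Replicate numbers were not used as pairs in the main tests, since in no comparison did every same-numbered pair correlate above 0.1. This rule does not exclude pairing within a line. In the repressive line 4 of 4 vehicle replicates correlated best with their own number (r 0.040 to 0.25, other pairs at most 0.067). The same held for 3 of 4 in the parental, 2 of 4 in the neutral and 2 of 4 in the activating line. Between the activating and parental lines it held for 0 of 4 under vehicle and 1 of 4 under tamoxifen. The replicate block gave -0.42 for TBPL1 in the activating against the parental line under vehicle (edgeR adjusted p = 0.110). It moved the calls from 0 to 32 in the parental line and from 322 to 90 in that line comparison.

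Leaving out 1 library gave 0.20 to 0.33 for TBPL1 in the activating line, -0.50 to -0.32 for the activating against the parental line under vehicle and 0.28 to 0.44 for the response, which was lost without parental tamoxifen replicate 1 or 2, parental vehicle replicate 1, activating tamoxifen replicate 4 or activating vehicle replicate 1. SLC2A12 in the activating against the parental line under tamoxifen ranged from -0.91 to -0.59, and the log2 ratio there from 0.48 to 0.78, with an exact permutation p of 0.0571 when any 1 parental library was left out.

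Counts of calls moved by more than 1.5 times to 18 in the parental line without the filter, to 451 from 709 in the repressive line with DESeq2, and to 542 from 322 in the activating against the parental line under vehicle with all libraries in one fit. Leaving out 1 library gave 120 to 315 calls there, the fewest without parental vehicle replicate 3, with 171 to 212 without activating vehicle replicate 1, 2 or 3 or parental vehicle replicate 2, and 105 to 415 against 188 in the neutral line, the extremes without tamoxifen replicates 3 and 4. With TMM factors from genes without opposite-strand overlap the split of higher to lower calls went from 876 and 910 to 1111 and 689 in the activating line, from 169 and 153 to 106 and 345 against the parental line under vehicle, and from 637 and 648 to 808 and 451 for the response. Depth limits SLC2A12, at a mean of 21.0 counts, more than TBPL1.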
